A study of Sus scrofa with 6 samples.

Results

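The cluster of miR-191 and miR-425 is a pair of microRNA (miRNA) hairpins that give 3 entries in the deposited table, found by name: miR-191 (listed with no arm), miR-425-5p and miR-425-3p. They are 3 of 1645 entries, of which 358 are known pig miRNAs and 1287 are predicted ones named by number. All 3 passed the filter on low values. The small RNA libraries came from cultured immature Sertoli cells, the somatic cells that support germ cells in the testis, of fetal pigs at 80 to 90 days of gestation. The tested cells received 250 µM AA2P (L-ascorbic acid 2-phosphate, given as its sesquimagnesium salt hydrate), a stable derivative of vitamin C, after 6 h of culture (3 AA2P libraries). The control cells received none (3 control libraries). Both groups were grown in medium with 10% fetal bovine serum and antibiotics. The labels name neither the strain nor the length of treatment, and do not say whether libraries came from separate animals or cultures. The p-values therefore reflect the spread among these 6 libraries, part of which could be technical.

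A miRNA is cut from a hairpin, and one of its arms guides the silencing complex to messenger RNAs that match its seed, the bases near its 5′ end. Hairpins of a cluster are cut from one transcript, so their products share a promoter but can differ in processing and in how long they last. In human and mouse, miR-191 and miR-425 lie in an intron of DALRD3. In the RefSeq annotation of the pig assembly Sscrofa11.1, MIR425 and MIR191 each occur once and lie next to each other, with 0 genes between them. Both lie inside the span of DALRD3, which sits between WDR6 and NDUFAF3. The build that the authors used is not given in the sources used here, so no coordinates are printed. In human cells miR-191 represses the chromatin organiser SATB1, and it is widely used as a reference miRNA in PCR assays because of its steady level across many tissues.

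The reads counted to the entries were estimated at 25.8 to 36.0 Mreads per library (M for mega), from the step that best fitted the low values. Values are in TPM, here counted reads set to a common sum per library. The miRNA miR-21-5p, the most abundant, took 37.0 to 44.1% of the TPM with AA2P and 51.3 to 53.0% in controls. The assay holds no messenger RNA, so the defining markers of Sertoli cells were not measured. The blood list (7 of 7 entries listed) summed to 4.48 to 14.25 TPM with AA2P and 4.87 to 5.90 TPM in controls. Its members did not move together. miR-142-3p was called higher with AA2P (log2 fold change 0.96; limma, adjusted p = 0.0293), whereas miR-486 was lower but not called (-0.53; limma, adjusted p = 0.118). The endothelial list (2 of 2) summed to 86.8 to 111 TPM with AA2P and 98.4 to 112 TPM in controls. The muscle and myoid list (6 of 6) summed to 219 to 307 TPM with AA2P and 168 to 227 TPM in controls. Of its members tested, none was called, and they did not move together. miR-1 (log2 fold change 0.55; limma, adjusted p = 0.0746), miR-133a-3p (0.32; limma, adjusted p = 0.255) and miR-145-5p (0.32; limma, adjusted p = 0.406) were higher with AA2P. miR-143-3p was lower (-0.15; limma, adjusted p = 0.687). The hepatocyte marker miR-122 stood at 6.37 to 9.90 TPM with AA2P and 3.52 to 6.43 TPM in controls. The gonadal miR-202 arms (2 of 2) summed to at most 0.68 TPM with AA2P and 1.01 TPM in controls, and germ cell miR-371-5p reached at most 0.11 TPM with AA2P and 0.04 TPM in controls. The part of other cell types in the results was not tested, and fewer cells of a type and less RNA per cell cannot be told apart.

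miR-425-5p, the main arm of its hairpin in these cells, rose with AA2P. It stood at 909.35, 893.78 and 817.86 TPM in AA2P libraries 1, 2 and 3, against 608.48, 532.19 and 601.19 TPM in control libraries 1, 2 and 3. The lowest AA2P library lay 209 TPM above the highest control library, and the libraries within each group lay close together. The means were 874 ± 49.0 TPM with AA2P and 581 ± 42.1 TPM in controls (SD, n = 3 per group), 50.5% higher. On the log2(TPM + 1) scale the fold change was 0.59 with a standard error of 0.0852 and a 95% interval of 0.38 to 0.80 (limma, adjusted p = 0.00519). Of 433 entries tested, 93rd place by log2 fold change fell to miR-425-5p.

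miR-425-3p, the less abundant arm of the same hairpin, also rose, but its call ended in 14 of 19 alternatives. It stood at 128.28, 102.83 and 109.16 TPM in AA2P libraries 1, 2 and 3, against 89.90, 82.62 and 84.30 TPM in control libraries 1, 2 and 3. The groups did not overlap, with a gap of 12.9 TPM between the lowest AA2P and the highest control library. The means were 113 ± 13.2 TPM with AA2P and 85.6 ± 3.81 TPM in controls (SD, n = 3 per group), 1.32-fold higher, with a log2 fold change of 0.40 and a 95% interval of 0.14 to 0.65 (limma, adjusted p = 0.0390). The call ended under each of 5 other scalings, with libraries scaled to miR-191 (limma, adjusted p = 0.803), with no filter (0.157), with no variance trend (0.0595) and with the replicate number as a block (0.0645). It also ended when any library but AA2P replicate 2 was left out, where the adjusted p was 0.0708 to 0.114.

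miR-191, the most abundant product, did not pass the test. It stood at 5349.50, 6846.79 and 5093.94 TPM in AA2P libraries 1, 2 and 3, against 5018.05, 4160.11 and 4736.44 TPM in control libraries 1, 2 and 3. AA2P replicate 2 stood well above the other AA2P libraries, and the lowest AA2P library lay only 75.9 TPM above the highest control library. The means were 5763 ± 947 TPM with AA2P and 4638 ± 437 TPM in controls (SD, n = 3 per group), with a log2 fold change of 0.31 and a 95% interval of -0.03 to 0.64 (limma, adjusted p = 0.147). Without AA2P replicate 2 the log2 fold change was 0.17 (limma, adjusted p = 0.256).

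**Figure D1:**
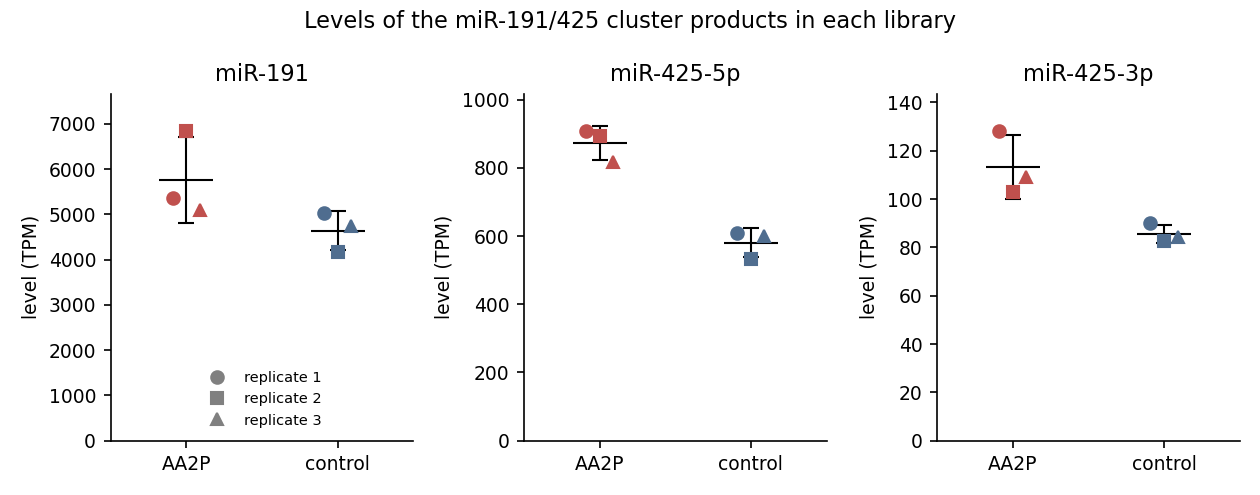
Levels in TPM (vertical axes from 0, one per product) of miR-191, miR-425-5p and miR-425-3p in the AA2P and the control libraries. Points are libraries, with the replicate number as the marker shape, and lines are the mean and SD of 3 libraries; miR-425-5p shows the widest gap between groups, and AA2P replicate 2 stands high for miR-191 at 6847 TPM and lowest of the AA2P libraries for miR-425-3p at 103 TPM.

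These counts have to be read against all entries. As higher with AA2P, 2 of the 3 cluster products were called, where 86 of 433 entries tested (19.9%) were called in that direction, 21 (4.85%) were called lower and 107 (24.7%) were called in all. All 3 products had AA2P libraries above every control library, which also held for 175 entries (40.4%). The median log2 fold change of all entries tested was 0.25, so miR-191 lay 0.06 above the median, miR-425-3p 0.15 and miR-425-5p 0.34.

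Which products were called depended on the scaling of the libraries. The median of all entries was shifted to 0.00 with trimmed-mean scaling, to 0.01 with median-of-ratios scaling, to -0.02 with totals without miR-21-5p and to 0.08 with totals without the 10 most abundant miRNAs. Under these 4 scalings miR-425-5p kept its call, with log2 fold changes of 0.29 to 0.39 (limma, adjusted p = 0.00703 to 0.0421). In the trimmed-mean values it stood at 794.92, 796.68 and 784.41 in the AA2P libraries, against 641.76, 607.33 and 668.39 in the control libraries. Entries called higher made up 11.1% with trimmed-mean scaling, 11.1% with median-of-ratios scaling, 9.24% with totals without miR-21-5p and 12.0% with totals without the 10 most abundant.

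Under the same 4 scalings miR-191 had log2 fold changes of 0.01 to 0.11 (limma, adjusted p = 0.532 to 0.965) and miR-425-3p of 0.10 to 0.20 (limma, adjusted p = 0.253 to 0.613). In the trimmed-mean values miR-191 stood at 4676.31, 6102.93 and 4885.57 in the AA2P libraries, against 5292.48, 4747.48 and 5265.83 in the control libraries. There, 2 of the AA2P libraries lay among or below the controls and replicate 2 lay above them. Quantile normalization, which gives every library the same set of values, acted otherwise: miR-191 passed at 0.38 (limma, adjusted p = 0.0125), whereas miR-425-5p at 0.13 did not (limma, adjusted p = 0.199), nor did miR-425-3p at 0.09 (limma, adjusted p = 0.529). There the median of all entries was 0.02, and 10.2% of entries were called higher. Its values stand for ranks: miR-191 took 12.43 (log2) in AA2P libraries 1 and 3 alike, and 12.09 in control libraries 1 and 2 alike. The standard error of miR-191 was 0.0637 with these values, against 0.136 in the deposited TPM.

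**Figure D2:**
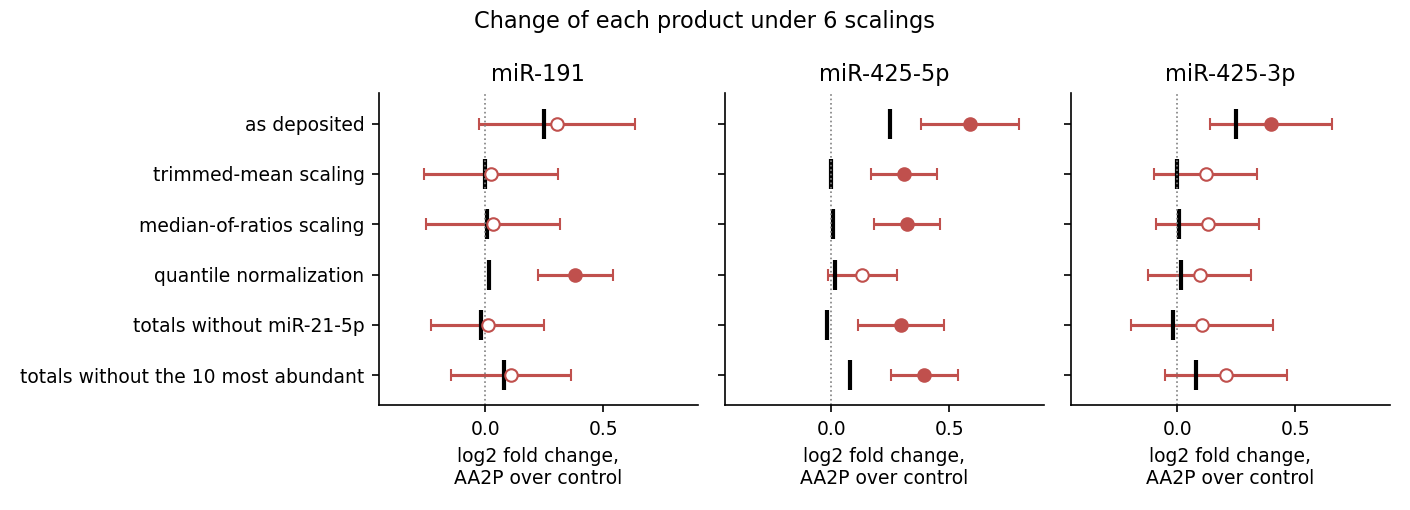
Log2 fold change of AA2P over control (horizontal axes) with its 95% interval for each cluster product under 6 scalings (rows). Filled points passed an adjusted p of 0.05 (limma), open points did not, and the black bar is the median of all entries under that scaling; miR-425-5p lies above the median in every row and is filled in all but quantile normalization.

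A factor that multiplies all values of a library cancels in ratios of products within it, unlike quantile normalization, which gives each rank its own shift. The level of miR-191 was 5.88, 7.66 and 6.23 times that of miR-425-5p in AA2P libraries 1, 2 and 3, against 8.25, 7.82 and 7.88 times in control libraries 1, 2 and 3. Every AA2P library lay below every control library, but AA2P replicate 2 did so by little. The mean ratio was 6.59 ± 0.943 with AA2P and 7.98 ± 0.232 in controls (SD, n = 3 per group), a log2 difference of -0.28. By an exact permutation test (two-sided) p was 0.1, and no lower p can be reached with 3 libraries in each group. With every library scaled to the same miR-191 level, an alternative added after the data were seen, the log2 fold change of miR-425-5p was 0.28 with a 95% interval of -0.01 to 0.58 (limma, adjusted p = 0.223). That interval includes 0. With quantile-normalized values, also added after the data were seen, the ratio turned round and was higher with AA2P, by 0.25 on the log2 scale (two-sided exact permutation test, p = 0.1, again the lowest that this design can give).

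The ratio of miR-191 to miR-425-3p was 41.7, 66.6 and 46.7 in AA2P libraries 1, 2 and 3, against 55.8, 50.4 and 56.2 in control libraries 1, 2 and 3. The AA2P libraries lay on both sides of the controls (two-sided exact permutation test, p = 0.6). As shares of the summed TPM of the cluster, miR-191 took 83.8, 87.3 and 84.6% in AA2P libraries 1, 2 and 3, against 87.8, 87.1 and 87.4% in control libraries 1, 2 and 3. miR-425-5p took 14.2, 11.4 and 13.6% in the AA2P libraries, against 10.6, 11.1 and 11.1% in the control libraries. By these shares AA2P replicate 2 lay near the controls and the other AA2P libraries stood apart. The cluster sum was 6750.5 ± 964 TPM with AA2P and 5304 ± 482 TPM in controls (SD, n = 3 per group).

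The arms of the miR-425 hairpin kept the same order in all libraries. The 5p arm stood at 7.09, 8.69 and 7.49 times the 3p arm in AA2P libraries 1, 2 and 3, against 6.77, 6.44 and 7.13 times in control libraries 1, 2 and 3. The groups overlapped, since AA2P replicate 1 lay just under control replicate 3. The log2 ratio of 5p to 3p was 2.94 ± 0.151 with AA2P and 2.75 ± 0.0734 in controls (SD, n = 3 per group), a difference of 0.19 with a 95% interval of -0.09 to 0.47 (limma, adjusted p = 0.483). Among 39 hairpins with at least 10 TPM on each arm, miR-425 ranked 15th by the 5p share and 13th by the size of the change. Of these 39 ratios, limma called 0 (0.0%), and 4 had an unadjusted p under 0.05. Without AA2P replicate 2 the difference for miR-425 was 0.11.

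**Figure D3:**
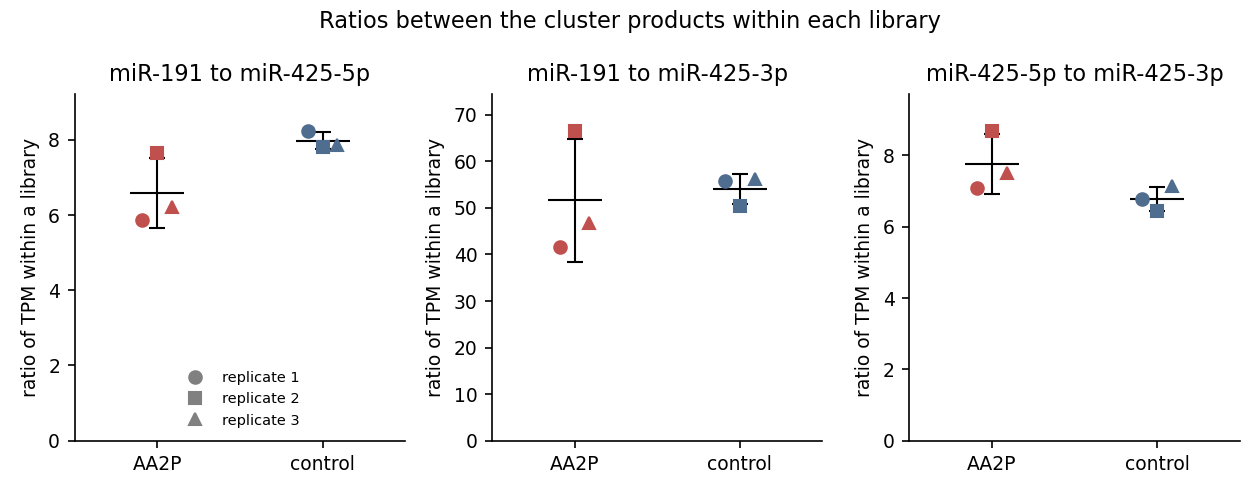
Ratios of TPM within a library (vertical axes from 0) between miR-191 and miR-425-5p, miR-191 and miR-425-3p, and the arms of miR-425, in the AA2P and the control libraries. Points are libraries, with the replicate number as the marker shape, and lines are the mean and SD of 3 libraries; AA2P replicate 2 has the highest AA2P value in each panel, and in the first panel the control libraries lie within 7.82 and 8.25.

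In the order of levels, the products lay far apart. Ligation and amplification differ between miRNAs, so the order of TPM is not an order of molecules. Among the 358 known miRNAs miR-191 ranked 19th by mean TPM with AA2P and 23rd in controls, and 17th to 24th in single libraries. miR-425-5p ranked 67th with AA2P and 71st in controls, and 67th to 72nd in single libraries. miR-425-3p ranked 133rd with AA2P and 136th in controls, and 131st to 137th in single libraries. In controls the neighbours of miR-191 were miR-103 and miR-222 above it and miR-423-3p and miR-183 below it, and the ranges of all 4 overlapped that of miR-191. With AA2P only miR-103 of these 4 still overlapped it. miR-425-5p had miR-339-5p and miR-6529 above it and miR-155-5p and miR-378b-3p below it in controls, all with overlapping ranges, and none of the 4 overlapped it with AA2P. For miR-425-3p, miR-574-3p, miR-1306-5p and miR-140-5p overlapped it in controls and miR-455-3p did not. With AA2P, miR-1306-5p and miR-140-5p overlapped it. All these neighbours were chosen by their control means, so overlap in controls follows largely from the choice. How often other entries lose such overlap with AA2P was not counted, so nothing particular to the cluster can be read from it.

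The profiles of the products over the 6 libraries were set beside those of other miRNAs. Likeness was measured as the Euclidean distance between log2(TPM + 1) profiles, each centred on its own mean. The comparison covered 200 other known miRNAs with a mean of at least 10 TPM. How many miRNAs would lie nearer to a product than its cluster partners by chance was not tested. Whether the products are coupled or uncoupled was therefore not tested by the order of distances. Nearest to miR-191 were miR-196b-5p (distance 0.119), miR-26a (0.128) and let-7d-5p (0.138), where the median distance was 0.555. miR-425-5p came 68th in this order at a distance of 0.453, and miR-425-3p 89th at 0.524. Nearest to miR-425-5p were miR-107 (distance 0.112), miR-499-5p (0.116) and let-7c (0.137), where the median distance was 0.581. miR-425-3p came 33rd from miR-425-5p, at a distance of 0.335. miR-107, which lies in PANK1 in human and affects insulin sensitivity in mouse, averaged 760.2 ± 54.3 TPM with AA2P and 505 ± 61.0 TPM in controls (SD, n = 3 per group).

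As a reference miRNA, miR-191 was set beside a list of 13 miRNAs in common use for that purpose, of which 11 were tested here. Of the 11, limma called 0 in the deposited TPM, with 2 (miR-16 and miR-186-5p, both higher) at an unadjusted p under 0.05, and their median log2 fold change was 0.15, against 0.25 for all entries. Ordered by the SD of log2(TPM + 1) over the 6 libraries, from the steadiest, miR-191 came 10th of 12 with an SD of 0.238, ahead of miR-16 and let-7a. The steadiest was miR-361-5p with an SD of 0.108. Of the 4 most abundant of the list, let-7a averaged 14536 ± 2434 TPM with AA2P and 12365 ± 2041 TPM in controls, and miR-26a 9596 ± 1285 TPM with AA2P and 8064 ± 879 TPM in controls. miR-103 averaged 6179 ± 398 TPM with AA2P and 5531 ± 588 TPM in controls, and miR-423-3p 4678 ± 160 TPM with AA2P and 4549 ± 573 TPM in controls (SD, n = 3 per group).

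That order depended on the scaling. miR-191 came 7th of 12 with trimmed-mean and with median-of-ratios scaling, 4th with totals without miR-21-5p, 8th with totals without the 10 most abundant miRNAs and 12th with quantile normalization. Of the 11 other reference miRNAs, trimmed-mean and median-of-ratios scaling called miR-24-3p and miR-151-3p lower with AA2P, and both kinds of reduced totals called miR-24-3p lower. With miR-191 itself as the scale, 47 entries were called, 26 higher (6.0%) and 21 lower with AA2P, against 107 (86 higher and 21 lower) in the deposited TPM, and 42 calls were shared.

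**Figure D4:**
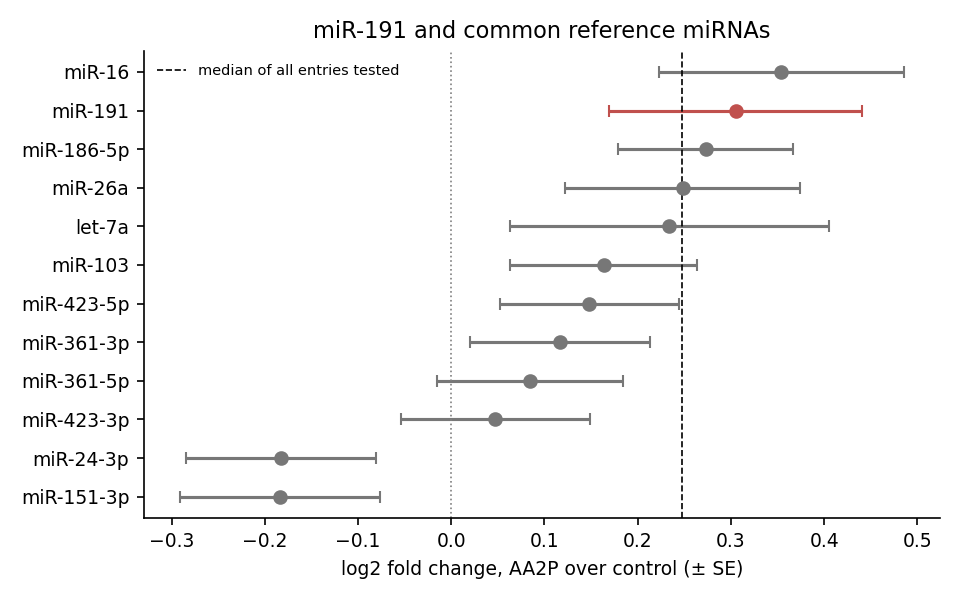
Log2 fold change of AA2P over control (horizontal axis, ± SE) in the deposited TPM for miR-191 (red) and 11 common reference miRNAs (grey), in order of the change. The dashed line is the median of all entries tested at 0.25; miR-191 lies at 0.31 and none of the 12 passed an adjusted p of 0.05 (limma).

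The balance within the cluster was also set beside that of other clustered miRNAs, from 16 pairs known as clusters mainly in human and mouse, of which 14 were measured. Several of these products, such as miR-16, let-7f-5p, miR-181a and miR-181b, come from more than a single locus in human, which limits the comparison. The within-library log2 ratio changed by a median of 0.189 in either direction over the 14 pairs, and by 0.28 for miR-191 and miR-425-5p, 9th of 15 from the smallest. The smallest changes were those of miR-532-5p and miR-660 (-0.01) and of miR-17-5p and miR-20a-5p (0.02). The largest were those of miR-99a-5p and let-7c (0.57) and of miR-143-3p and miR-145-5p (-0.47). The groups did not overlap in 7 of the 14 other pairs, as they did not for miR-191 and miR-425-5p, and the change in this cluster lay within the range of the others.

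**Figure D5:**
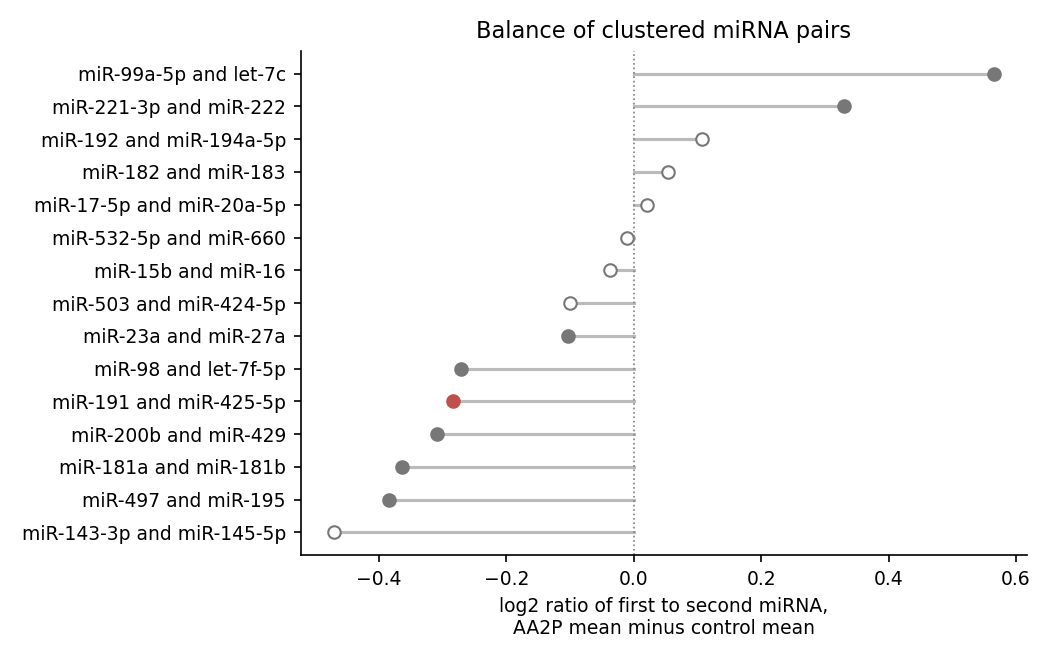
Mean within-library log2 ratio of the first to the second miRNA of a pair with AA2P minus that in controls (horizontal axis), for miR-191 and miR-425-5p (red) and 14 other clustered pairs (grey). Filled points are pairs whose AA2P and control libraries do not overlap; miR-191 and miR-425-5p lie at -0.28, within the spread of the other pairs.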

How the data were processed

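Libraries were run on an Illumina NovaSeq, per the labels' protocols. The values are TPM in 1 table deposited by the authors. Bowtie is the sole tool named per the submitters' processing notes, without its version. Genome build, miRBase release and treatment of shared reads: not given in the sources used here. Depth was estimated as the best-fitting shared step of low values within a set range. The fit left an error of 0.245 to 0.372 relative to that of chance. By this estimate the lowest value of a member, for miR-425-3p, rests on 2320 reads, a counting error of 2.08%. Likewise, 3 reads correspond to 0.0834 to 0.116 TPM. Both cover counting error only, since no molecular identifiers mark PCR copies.

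The 433 entries that reached 1 TPM in 3 or more libraries were tested on log2(TPM + 1), which understates changes of low entries. The AA2P and control groups were compared with limma 3.58.1 (R 4.3.3, trend in the variance, two-sided), Benjamini-Hochberg adjustment covered all entries, and calls were made under 0.05. The limma step was tested on simulated data with independent noise and planted changes balanced in both directions. No shift in library scaling was simulated there, so that test does not bear on how calls depend on scaling. Arm ratios were fitted over 39 hairpins, and the cluster ratio by an exact permutation test. Deviations from the group means correlated at 0.288, 0.062 and 0.177 between libraries of the same number, which is not over 0.1 for all, so numbers were not taken as pairs. Alternatives covered scaling, pseudocount, filter, variance model, block and left-out libraries. Named miRNAs were the members, their neighbours in level and the 3 nearest profiles to miR-191 and miR-425-5p. Also named were called and the 4 most abundant reference miRNAs, and the pairs with the 2 smallest and 2 largest changes. miR-16, miR-186-5p, miR-361-5p, miR-24-3p, miR-151-3p, miR-142-3p, miR-486, miR-1 and miR-133a-3p were named after their values were seen. The members, lists and tests were chosen with earlier results of these data known.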

Additional observations from a re-analysis of the deposited data

How the results depend on the processing

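miR-425-5p was higher with AA2P under all 19 alternatives and passed in 17. miR-425-5p did not pass with quantile normalization (log2 fold change 0.13) or with libraries scaled to miR-191 (0.28). In the deposited TPM without 1 library each it was 0.53 to 0.64. miR-191 passed in 2 of 18 alternatives, with quantile normalization (0.38) and with known miRNAs only (0.31; limma, adjusted p = 0.0460), and without 1 library each it was 0.17 to 0.39. miR-425-3p lost its call in 14 of 19: trimmed-mean (0.12), median-of-ratios (0.13) and quantile scaling (0.094), totals without miR-21-5p (0.10) or the 10 most abundant (0.20), libraries scaled to miR-191 (0.094), no filter, no trend and the replicate block (0.40 each), and 5 of the 6 left-out libraries, over which it was 0.31 to 0.46. The cause was not tested, except that without a filter 1645 entries were adjusted for.

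The count of 107 calls was 57 with no filter, 63 with the replicate block and 47 with libraries scaled to miR-191, and 62 to 98 without 1 library each, lowest without control replicate 3. Of the calls, 86 were higher and 21 lower as deposited, 48 and 51 with trimmed-mean scaling, 48 and 50 with median-of-ratios scaling, 44 and 40 with quantile normalization, 40 and 43 with totals without miR-21-5p, and 52 and 36 with totals without the 10 most abundant. The log2 difference of the miR-191 to miR-425-5p ratio was -0.40 to -0.21 without 1 library each, and with the replicate block the two-sided exact permutation test on 3 pairs gave p = 0.25, the smallest it allows. With quantile normalization that difference was reversed, at 0.25. The arm difference of miR-425 was 0.11 to 0.25 without 1 library each and 0.036 with quantile normalization, and it did not pass in any of 9 other alternatives (limma, adjusted p = 0.404 to 0.802). With the replicate block the call of miR-425-3p ended (limma, adjusted p = 0.0645), and that of miR-425-5p held (limma, adjusted p = 0.0245). By the estimated depths, the counting error of each of the 3 products was smaller than its spread between libraries in either group. That error leaves out PCR copies, and the source of the spread was not tested.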
